A study of Homo sapiens with 9 samples.

Results

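Keratins, claudins and desmosome genes build the filaments and junctions that hold epithelial cells together. The 91 such genes in a deposited expression table of 26485 genes were found by a rule on the symbol (KRT with a number, CLDN with a number, DSC and DSG 1 to 4, DSP, and PKP 1 to 4). They comprised 55 keratins (29 of type I and 26 of type II), 24 claudins and 12 desmosome genes (7 cadherins and 5 plaque genes). The values come from bulk RNA sequencing of MDA-MB-231, an established human line of triple-negative breast cancer that is commonly counted among the claudin-low, mesenchymal-like lines. One group of 3 libraries was made from cells stably expressing a nonspecific shRNA (NS shRNA), one of 3 from cells with ASAH1 shRNA #1 and one of 3 from cells with ASAH1 shRNA #2, all grown in DMEM with 10% fetal bovine serum. ASAH1 encodes acid ceramidase, the lysosomal enzyme that splits ceramide into sphingosine and a fatty acid, and an shRNA is a hairpin transcript that the cell processes into a small RNA that silences its target. The study described the 3 libraries of a group as biological replicates, without saying whether they came from separate cultures or transductions, so the p-values measure the spread between these libraries. No unmodified cells and no rescue with a hairpin-resistant ASAH1 were among the libraries.

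Keratins are the intermediate filaments of epithelial cells. They form only as pairs of a type I and a type II chain, and the pair in use marks the epithelium: KRT8 with KRT18, and KRT7 with KRT19, in simple epithelia such as the luminal cells of the breast, KRT5 with KRT14 in basal cells, KRT1 with KRT10 in the upper epidermis, and the KRT31 to KRT40 and KRT81 to KRT86 groups in hair. The filaments are anchored at desmosomes, where the cadherins of the DSG and DSC families bind those of the next cell, plakophilins (PKP) and plakoglobin (JUP) bind the cadherin tails, and desmoplakin (DSP) ties the plaque to the keratins. Claudins are 4-pass membrane proteins that form the strands of tight junctions, some of which seal the space between cells while others, such as CLDN2 and CLDN15, form channels for small cations. Cells that take on a mesenchymal state usually lose many of these proteins and keep vimentin filaments.

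Per library, 30989598 to 34867548 reads were assigned to genes for NS shRNA, 23806003 to 39791698 for shRNA #1 and 35653318 to 49659106 for shRNA #2. The deposited value, here called the normalized count, is a read count divided by the size factor of its library, and the size factors were set separately for each hairpin with the NS libraries, so the NS values differ between the comparisons. ASAH1 had normalized counts of 4436, 4512 and 4518 with NS shRNA against 1268, 1365 and 1348 with shRNA #1 (values of several libraries are given in the order of replicates 1 to 3 throughout). In the other comparison it had 4787, 4898 and 4871 against 779.6, 807 and 762 with shRNA #2. Both knockdowns were therefore visible in each library, with log2 fold changes of -1.76 (adjusted p = 9.49e-09) and -2.63 (adjusted p = 5.42e-10) by limma, a linear model fitted across all genes. Of the marker lists, 6 genes typical of MDA-MB-231 (VIM, ZEB1, AXL, CD44, CAV1 and MSN) summed to 5691 to 6018 RPM (reads scaled to a common library total of reads on genes) with NS shRNA, 5400.4 to 5629 with shRNA #1 and 4228 to 4539.8 with shRNA #2. The 8 luminal markers summed to 22.8 to 24.6, 16.3 to 17.6 and 24.7 to 25.6, with ESR1 and PGR at 3 reads or fewer in every library. Most of that sum was GATA3 in every library (702, 716 and 812 reads in the NS libraries). The 5 myoepithelial or basal markers summed to 46.2 to 73.1, 34.4 to 47.0 and 48.0 to 75.3, most of it ACTA2 in every library (2035, 2035 and 1370 reads in the NS libraries). The 8 markers of blood, endothelial and stromal cells summed to 7.28 to 7.94, 4.93 to 6.05 and 2.16 to 3.40, with CD3E, CDH5 and DCN at 3 reads or fewer in every library. LUM and PECAM1 together made up most of that sum in every library. The luminal and the myoepithelial or basal sums therefore mainly follow single genes, and the last sum LUM and PECAM1, and not the whole lists. The MDA-MB-231 sum was spread over several genes. Within the MDA-MB-231 list the genes did not move together. ZEB1 had 1593, 1876 and 2264 reads with NS shRNA and 3081, 3495 and 3571 with shRNA #2. VIM had 65934, 68385 and 72608 against 41873, 47844 and 59226 (reads not scaled to depth). The median of all genes shifts on the RPM scale with shRNA #2, as given below, so the sums are not read as changes between groups. The part of these lists in the results was not tested. In bulk RNA, fewer cells that express a gene and less RNA of it per cell cannot be told apart.

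MDA-MB-231 cells with NS shRNA expressed a simple-epithelial keratin set. Per length, in RPKM (RPM divided by the length of the GENCODE canonical transcript in kilobases), KRT7 was at 464 ± 33.5 (SD, n = 3), KRT18 at 267 ± 20.4, KRT19 at 229.7 ± 26.3 and KRT8 at 229 ± 3.88. The NS libraries of KRT18 lay above those of KRT8 (244 to 280.5 against 226 to 233), whereas KRT19 (199 to 247) overlapped with both. Stretches of the read length that also occur in another gene made up 18.2% of KRT8 and 5.75% of KRT18. The order of KRT18 and KRT8 is therefore uncertain. KRT18 and KRT19 held 94.4% of the summed type I level, and KRT7 and KRT8 held 86.9% of the summed type II level. The next keratins on this scale were KRT80 at 71.6, KRT81 at 26.0 and KRT10 at 18.0. CLDN4 was the most abundant claudin, at 129 ± 8.03 and 51.3% of the summed claudin level, followed by CLDN7 at 41.1, CLDN12 at 30.2 and CLDN1 at 14.1. Among the desmosome genes DSG2 and PKP4 were at 29.7 and 29.6, PKP3 at 17.1, PKP2 at 13.2 and DSP at 8.15. DSC2, the only other desmosomal cadherin with enough reads for a test, was at 0.0792. This scale divides by the library total, and on it the median of all tested genes lay at a log2 ratio of -0.12 with shRNA #2 relative to NS shRNA and at 0.02 with shRNA #1, so levels on this scale are used here for the order of genes and for ratios within a library, and changes between groups are taken from the fits.

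**Figure D1:**
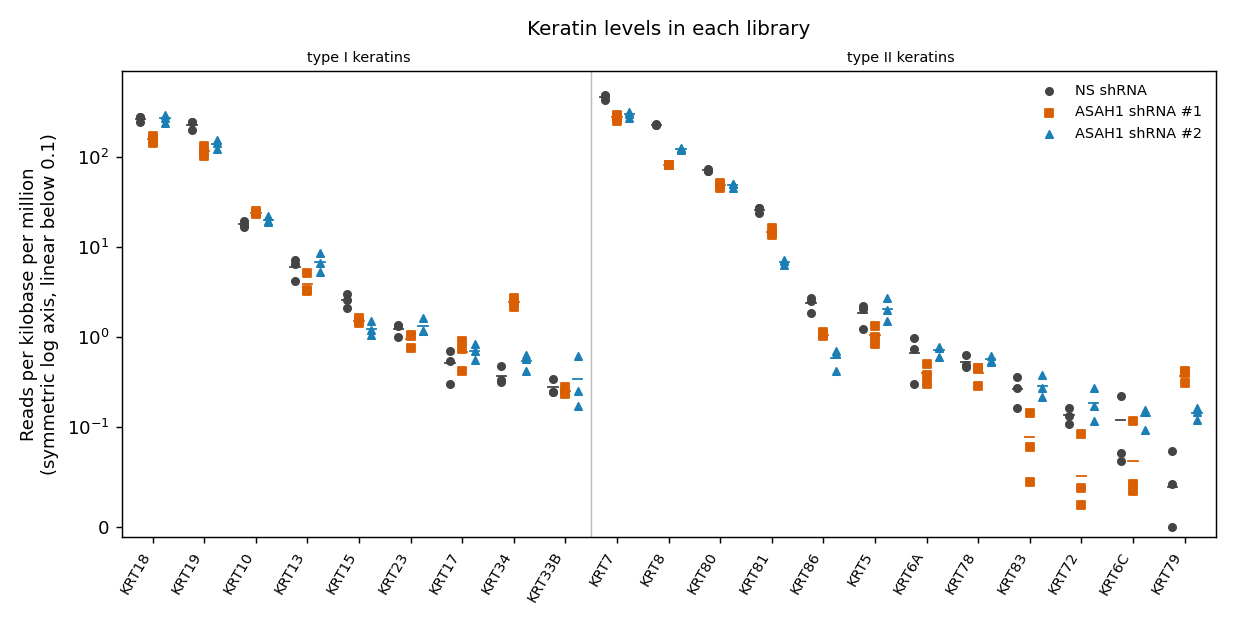
Level of each tested keratin in each of the 9 libraries, in RPKM (reads per length of transcript, scaled to a common library total), on a symmetric log axis that is linear below 0.1; circles are NS shRNA, squares ASAH1 shRNA #1, triangles ASAH1 shRNA #2, and short lines the group means. KRT18 and KRT19 lie highest among the type I keratins, at NS means of 267 and 229.7. KRT7 and KRT8 lie highest among the type II keratins, at 464 and 229. The squares of KRT34 and KRT79 lie above both other groups.

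With shRNA #1 more members were called lower than higher. Of the 36 members whose normalized counts averaged at least 10 over the libraries compared, 9 were higher and 18 lower than with NS shRNA at an adjusted p below 0.05 (limma on log2(normalized count + 1), Benjamini-Hochberg over all genes), and 9 did not pass. Over all 14341 genes tested 32.8% were higher and 33.3% lower. KRT79 and KRT83 are among these calls but met the minimum of 10 only through the group in which they were higher, as did DSC2 among the calls with shRNA #2, so these calls rest in part on the filter. The median log2 fold change was -0.55 over the members and 0.0013 over all genes. Type II keratins numbered 1 higher and 7 lower of 10 tested, type I keratins 2 and 4 of 9, claudins 4 and 4 of 11, and desmosome genes 2 and 3 of 6.

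With shRNA #2 the counts were 6 higher, 15 lower and 15 not passing, of 36 members tested, beside 33.5% higher and 33.4% lower over all 14250 genes. The median over the members was 0.12, against 0.013 over all genes, and thus had the opposite sign to the majority of the calls. Type II keratins numbered 0 higher and 5 lower of 11 tested, type I keratins 1 and 2 of 9, claudins 4 and 5 of 10, and desmosome genes 1 and 3 of 6. The keratins alone had a median of 0.25 with 1 higher and 7 lower of 20, and each of the 12 that did not pass had a positive log2 fold change. Both comparisons use the same NS libraries, so their counts are set side by side and their likeness is not read as a result. Of the 91 members, 53 reached a mean of 10 in neither comparison.

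The hairpins were compared with each other directly by edgeR's quasi-likelihood test on the read counts of all 9 libraries. Of 35 members tested, 15 were higher and 11 lower with shRNA #2 than with shRNA #1, and 9 did not pass. Over all 14381 genes tested, 31.4% were higher and 32.5% lower. KRT83 and DSC2 are among the member calls but had few reads in the hairpin group where they were lower. KRT83 had 2, 6 and 9 reads with shRNA #1, and DSC2 1, 1 and 5 with shRNA #2, so these calls rest in part on the filter. The same holds for KRT79, called lower with shRNA #2. It had 11, 10 and 17 reads there and 5, 3 and 0 with NS shRNA, against 21, 26 and 28 with shRNA #1. The keratins gave 10 higher and 4 lower of 19, the claudins 3 and 3 of 10, and the desmosome genes 2 and 4 of 6. The median log2 difference was 0.13 over the members and -0.0046 over all genes.

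**Figure D2:**
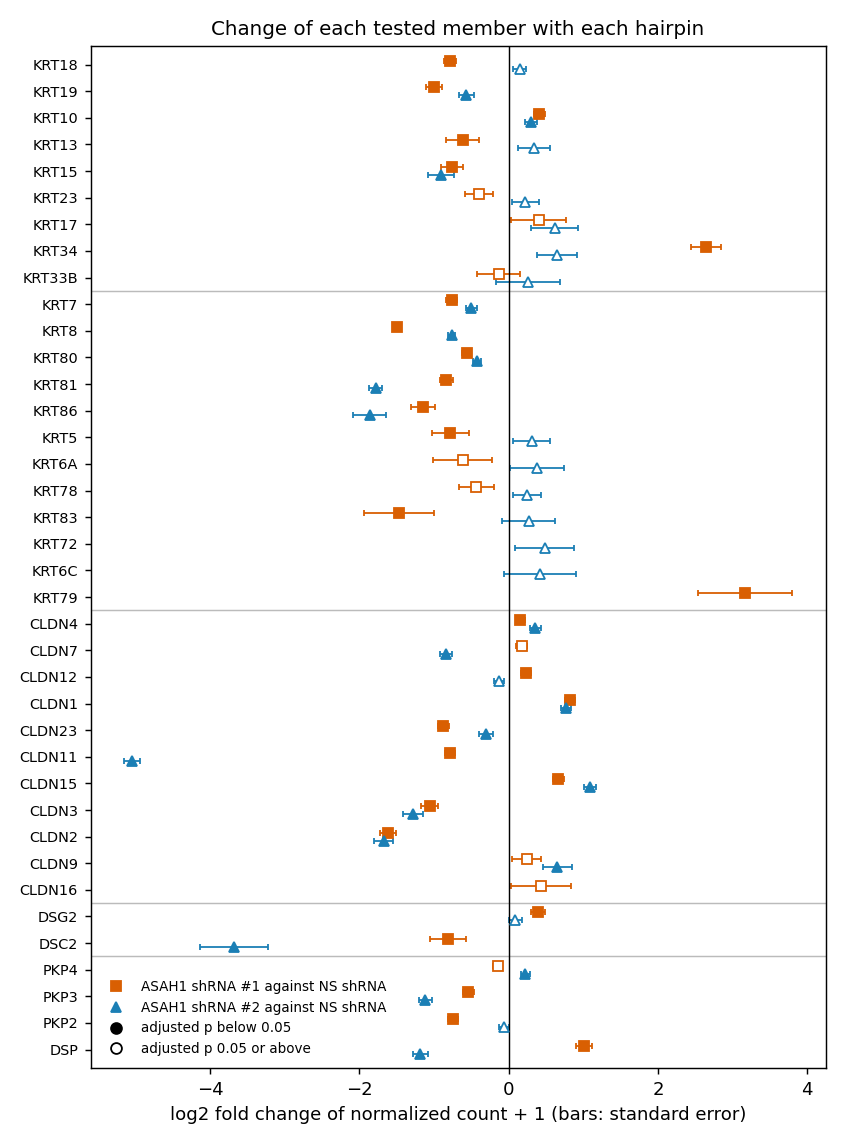
Log2 fold change of normalized count + 1 (x axis) for each tested member, with shRNA #1 (squares) and shRNA #2 (triangles) each against NS shRNA. Bars are standard errors, filled symbols have an adjusted p below 0.05 by limma, and lines divide type I keratins, type II keratins, claudins, desmosomal cadherins and plaque genes from top to bottom; DSP lies at 1.01 with shRNA #1 and -1.18 with shRNA #2, and CLDN11 at -0.79 and -5.05.

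Among members called the same way with shRNA #1 and with shRNA #2, the 6 with the largest mean log2 fold change were CLDN11, DSC2, CLDN2, KRT86, KRT81 and CLDN3, and all 6 were lower. The upstream sequence of 4 of them is shown because their mean falls were the largest, and it gives the letters next to which their transcription starts. KRT86 and KRT81 are named only. The place of DSC2 in this ranking rests on its log2 fold change with shRNA #2. With that hairpin it had 1, 1 and 5 reads and met the minimum for the test only through the NS libraries. The sequences are from RefSeq on GRCh38.p14, the 250 bases before the RefSeq start site, written 5′ to 3′ on the strand of the gene in lower case. Capitals mark the motifs searched on both strands, which were an E-box (CACCTG, reverse complement CAGGTG), the AP-1 motif (TGANTCA), the GC box (GGGCGG, reverse complement CCGCCC) and the TATA box (TATAAA). For DSC2, only the 149 bases outside the GENCODE v44 span of the gene are printed.
CLDN11, chr3:170418618-170418867, plus strand: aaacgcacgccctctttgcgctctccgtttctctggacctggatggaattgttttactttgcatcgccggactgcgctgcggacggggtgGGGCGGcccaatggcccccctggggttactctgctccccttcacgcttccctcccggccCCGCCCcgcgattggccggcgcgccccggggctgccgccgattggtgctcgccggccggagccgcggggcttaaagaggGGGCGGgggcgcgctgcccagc
DSC2, chr18:31102523-31102671, minus strand: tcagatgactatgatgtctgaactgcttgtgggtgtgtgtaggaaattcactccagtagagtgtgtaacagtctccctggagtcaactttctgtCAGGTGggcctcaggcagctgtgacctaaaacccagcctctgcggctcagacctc
CLDN2, chrX:106899914-106900163, plus strand: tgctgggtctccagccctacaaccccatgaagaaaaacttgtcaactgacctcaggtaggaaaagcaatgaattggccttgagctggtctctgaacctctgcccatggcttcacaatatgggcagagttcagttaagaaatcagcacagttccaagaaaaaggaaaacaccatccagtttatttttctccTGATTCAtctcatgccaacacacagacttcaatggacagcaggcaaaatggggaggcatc
CLDN3, chr7:73770271-73770520, minus strand: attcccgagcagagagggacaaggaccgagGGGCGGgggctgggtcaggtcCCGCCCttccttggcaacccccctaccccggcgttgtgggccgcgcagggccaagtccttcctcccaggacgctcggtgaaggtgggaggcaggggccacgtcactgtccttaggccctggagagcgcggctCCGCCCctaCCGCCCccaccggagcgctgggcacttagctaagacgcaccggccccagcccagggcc
CLDN11 held 3 GC boxes in a window of 71.2% GC, and CLDN3 held 4 in a window of 71.6% GC. CLDN2 held 1 AP-1 motif and no GC box, at 46.0% GC. The 250-base window of DSC2 held 1 E-box and 1 GC box, the latter in the part not printed. Of 35116 RefSeq windows of the same length, 42.6% held a GC box, 17.5% the E-box, 6.6% the AP-1 motif and 10.7% the TATA box. A match describes the letters and was not tested as a binding site.

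The simple-epithelial keratins fell with shRNA #1, and those of the KRT8/KRT18 pair fell by unequal amounts. KRT8, the type II chain of the pair (chr12:52897187-52949954 in GENCODE v44 on hg38), had normalized counts of 13495, 13044 and 13025 with NS shRNA against 4644, 4696 and 4668 with shRNA #1. KRT8 had 8547, 8095 and 8521 with shRNA #2, where the NS libraries had 14561, 14159 and 14044. The groups did not overlap in either comparison, and the replicates of KRT8 lay close to each other. The log2 fold changes were -1.50 (SE 0.041, adjusted p = 8.32e-09) with shRNA #1 and -0.77 (SE 0.049, adjusted p = 4.32e-07) with shRNA #2 by limma, and KRT8 was higher under shRNA #2 than under shRNA #1 by a log2 difference of 0.72 (adjusted p = 6.41e-08) in edgeR's quasi-likelihood test. KRT18, its type I partner (chr12:52948871-52952906), had 12854, 12688 and 11092 with NS shRNA against 6527, 6965 and 7784 with shRNA #1. KRT18 had 14828, 12989 and 16093 with shRNA #2, where the NS libraries had 13870, 13773 and 11960. KRT18 thus fell with shRNA #1, with a log2 fold change of -0.78 (SE 0.076, adjusted p = 1.55e-05), and with shRNA #2 its groups overlapped at a log2 fold change of 0.15 (SE 0.084, adjusted p = 0.146) by limma, a value that became 0.23 (adjusted p = 0.0218) without replicate 2 of shRNA #2. For KRT18, the log2 difference between the hairpins was 0.92 (adjusted p = 4.20e-06) in edgeR's quasi-likelihood test.

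The ratio of KRT8 to KRT18, per length, was 0.814 to 0.930 in the NS libraries, 0.475 to 0.564 with shRNA #1 and 0.419 to 0.494 with shRNA #2. Each knockdown library therefore held less KRT8 for its KRT18 than any NS library. The ratio is taken within a library and does not depend on the scaling between libraries. Over all keratins, the summed type II level divided by the summed type I level was 1.47 to 1.61 with NS shRNA, 1.31 to 1.44 with shRNA #1 and 1.04 to 1.14 with shRNA #2, again with no overlap between the groups. These ratios are descriptions without a test. Annotated spans of KRT8 and KRT18 overlap on opposite strands, which strand-specific counting separates. Windows of 76 bases, the read length, that also occur in another gene made up 18.2% of the KRT8 transcript (a processed KRT8 pseudogene, KRT8P3, holds the most) and 5.75% of KRT18, so the level of KRT8 is uncertain by the treatment of such reads.

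KRT19, a type I keratin of ductal and glandular epithelium, and KRT7, a type II keratin of the same tissues, fell with both hairpins. KRT19 had 11144, 10885 and 8925 with NS shRNA against 4559.7, 5066 and 5829.6 with shRNA #1. In the other comparison it had 12025, 11816 and 9623 against 7733, 6499 and 8369 with shRNA #2. Neither hairpin's libraries overlapped with those of NS shRNA. Its log2 fold changes were -1.002 (SE 0.10, adjusted p = 2.13e-05) and -0.57 (SE 0.10, adjusted p = 0.00066) by limma. KRT7 had 25843, 24918 and 22291 with NS shRNA against 13144, 14372 and 15426 with shRNA #1. In the comparison with shRNA #2 it had 27886, 27049 and 24035 against 18953, 16789 and 20035. The log2 fold changes of KRT7 were -0.77 (SE 0.071, adjusted p = 1.15e-05) and -0.50 (SE 0.076, adjusted p = 0.000185) by limma. The ratio of KRT7 to KRT19, per length, was 1.96 to 2.14 with NS shRNA, 2.26 to 2.47 with shRNA #1 and 2.05 to 2.21 with shRNA #2, so the last of these overlapped with NS shRNA. By edgeR's quasi-likelihood test KRT19 was higher under shRNA #2 than under shRNA #1 by a log2 difference of 0.42 (adjusted p = 0.00701) and KRT7 by 0.25 (adjusted p = 0.0156), and the call for KRT7 was lost without replicate 1 of either hairpin or without replicate 3 of shRNA #2 (adjusted p of 0.0504 to 0.066).

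KRT80, a type II keratin found in many epithelia, had 8794, 8808 and 9279.8 with NS shRNA against 6318, 6219 and 5645 with shRNA #1. KRT80 had 7497, 7397 and 6786 with shRNA #2, where the NS libraries had 9489.5, 9561 and 10005. It fell with each hairpin, with log2 fold changes of -0.57 (SE 0.054, adjusted p = 1.39e-05) and -0.42 (SE 0.056, adjusted p = 6.85e-05) by limma. Here, the log2 difference between the hairpins was 0.13 (adjusted p = 0.0612) in edgeR's quasi-likelihood test, and it passed without replicate 1 of shRNA #1 (0.16, adjusted p = 0.0444) or replicate 3 of shRNA #2 (0.17, adjusted p = 0.0222).

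**Figure D3:**
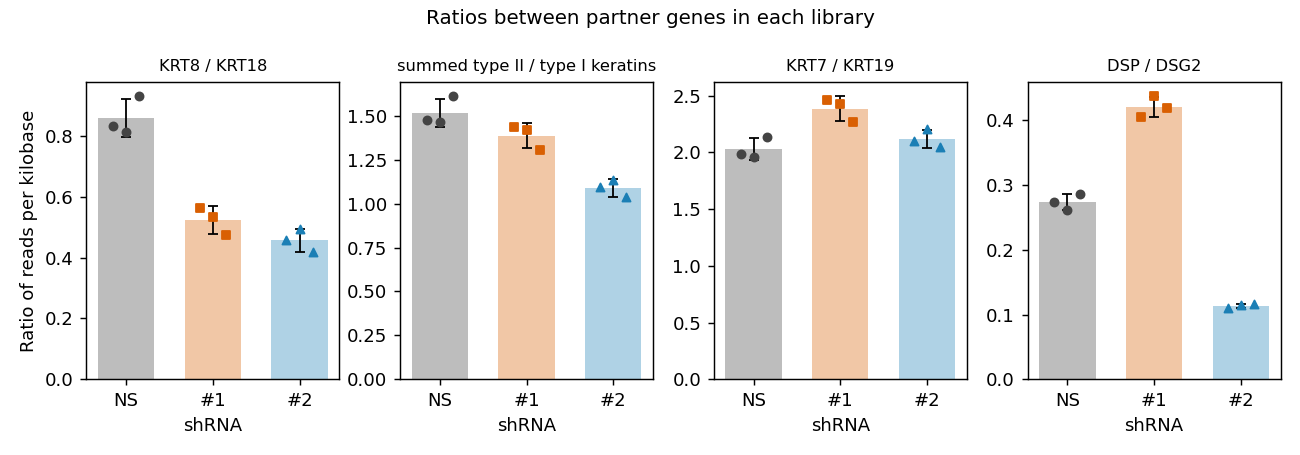
Ratios between partner genes in each library, from reads per kilobase, for KRT8 to KRT18, summed type II to type I keratins, KRT7 to KRT19 and DSP to DSG2. Bars are means of 3 libraries, error bars the SD and points the libraries; KRT8 to KRT18 lies at 0.814 to 0.930 with NS shRNA and at 0.564 or less in each knockdown library, and DSP to DSG2 is highest with shRNA #1 and lowest with shRNA #2.

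Among the hair keratins, KRT81 and KRT86 fell with both hairpins, while KRT34 rose with shRNA #1. KRT81 (chr12:52285913-52291534), a type II hair keratin also found in breast cancer cells, had 1699, 1675 and 1498 with NS shRNA against 833, 886 and 1015 with shRNA #1. Against 1833, 1818 and 1615 in the comparison with shRNA #2, it had 523, 465 and 539. It fell, with log2 fold changes of -0.84 (SE 0.084, adjusted p = 1.86e-05) and -1.78 (SE 0.083, adjusted p = 5.58e-08) by limma, and was lower under shRNA #2 than under shRNA #1, with a log2 difference of -0.97 (adjusted p = 2.91e-06) in edgeR's quasi-likelihood test. KRT86 (chr12:52249300-52309163), its neighbour and close relative, had 185, 199 and 133 with NS shRNA and 81.6, 73.1 and 74.9 with shRNA #1. KRT86 had 56.1, 36.0 and 61.3 with shRNA #2, where the NS libraries had 199.9, 216 and 143. The log2 fold changes of KRT86 were -1.14 (SE 0.16, adjusted p = 0.00018) and -1.86 (SE 0.22, adjusted p = 3.32e-05) by limma, and no library of either hairpin reached the lowest NS library. KRT86 was lower under shRNA #2 than under shRNA #1, with a log2 difference of -0.69 (adjusted p = 0.0177) in edgeR's quasi-likelihood test, which was lost without replicate 2 of shRNA #2 (adjusted p = 0.0608). These genes share sequence, with 36.3% of the 76-base windows of KRT81 and 30.1% of those of KRT86 found in another gene, mostly in each other (32.8% and 28.0%), so the split of reads between them is uncertain. In GENCODE v44, KRT81 lies within the span of KRT86 on the opposite strand. That span also overlaps the far more abundant KRT7 (chr12:52232520-52252186) on the same strand, which strand-specific counting does not separate. The part of KRT7 in the KRT86 values was not tested.

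KRT83, the other type II hair keratin with enough reads, was near the limit of the test, which it met against shRNA #1 only through the NS libraries. It had 22.0, 9.81 and 16.6 with NS shRNA against 2.67, 4.82 and 8.65 with shRNA #1, a log2 fold change of -1.47 (SE 0.47, adjusted p = 0.0198) by limma whose adjusted p was 0.079 without replicate 1 of NS shRNA and 0.0563 without replicate 1 of shRNA #1. KRT83 had 19.4, 27.2 and 15.5 with shRNA #2, where the NS libraries had 23.7, 10.7 and 17.9, with overlap, at a log2 fold change of 0.27 (SE 0.35, adjusted p = 0.524). Without replicate 2 of NS shRNA that value was -0.03. For KRT83, the log2 difference between the hairpins was 1.73 (adjusted p = 0.00482) in edgeR's quasi-likelihood test. With 2, 6 and 9 reads under shRNA #1, it met the minimum there only through the NS and shRNA #2 libraries, so this difference is given as a description.

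KRT34, a type I hair keratin, was low with NS shRNA and had 25.1, 16.7 and 17.5 there against 114, 127 and 141 with shRNA #1. KRT34 had 39.9, 36.0 and 26.4 with shRNA #2, where the NS libraries had 27.1, 18.1 and 18.9. All shRNA #1 libraries lay far above the others, and it rose with this hairpin, with a log2 fold change of 2.64 (SE 0.20, adjusted p = 2.93e-06) by limma. The value with shRNA #2 was 0.65 (SE 0.27, adjusted p = 0.0522). It passed without replicate 1 of NS shRNA (0.83, adjusted p = 0.0296) or without replicate 3 of shRNA #2 (0.82, adjusted p = 0.0301). It also passed by limma with a pseudocount of 5 (0.57, adjusted p = 0.0471) and with no intensity trend (adjusted p = 0.0334). KRT34 was lower under shRNA #2 than under shRNA #1, with a log2 difference of -2.05 (adjusted p = 3.49e-06) in edgeR's quasi-likelihood test. KRT33B, a related type I hair keratin that shares 13.8% of its 76-base windows with other genes, had log2 fold changes of -0.14 (adjusted p = 0.699) and 0.25 (adjusted p = 0.617) by limma.

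The keratins of basal and stratified epithelia had low levels and wide spread. KRT5, the basal type II chain, had 151, 160 and 88.6 with NS shRNA against 60.2, 71.5 and 96.1 with shRNA #1, which overlapped. It fell, with a log2 fold change of -0.78 (SE 0.24, adjusted p = 0.0178) by limma, a call lost without replicate 1 or 2 of either group (adjusted p of 0.0526 to 0.0801). KRT5 had 128, 172 and 232 with shRNA #2, where the NS libraries had 163, 174 and 95.6, at a log2 fold change of 0.31 (SE 0.25, adjusted p = 0.302). KRT13, a type I chain of moist stratified epithelia, had 399, 361 and 233 with NS shRNA against 183, 176 and 285 with shRNA #1. It fell, with a log2 fold change of -0.62 (SE 0.23, adjusted p = 0.0356) by limma, likewise lost without replicate 1 or 2 of either group (adjusted p of 0.0955 to 0.139). That call was also lost with no intensity trend (adjusted p = 0.0924) and with a replicate block (adjusted p = 0.0832). KRT13 had 346, 435 and 568 with shRNA #2, where the NS libraries had 430.3, 392 and 251, at a log2 fold change of 0.34 (SE 0.21, adjusted p = 0.181). Both genes were higher under shRNA #2 than under shRNA #1, KRT5 by a log2 difference of 1.10 (adjusted p = 0.00415) and KRT13 by 0.95 (adjusted p = 0.00517) in edgeR's quasi-likelihood test.

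Within groups, KRT5 and KRT13 were lowest in replicate 3 of NS shRNA and highest in replicate 3 of each hairpin. This order was not particular to them, as KRT7, KRT18, KRT19, KRT81, CLDN4 and CLDN7 had it too. KRT80, CLDN1, CLDN15, DSG2, DSP and PKP4 had the reverse order, highest in replicate 3 of NS shRNA and lowest in replicate 3 of each hairpin. ACTA2, a smooth-muscle actin on the myoepithelial marker list, was also lowest in replicate 3 of NS shRNA (1370 reads, against 2035 in each of the others) and highest in replicate 3 of shRNA #2 (3572 reads, against 1621 and 2350), and had 719, 1117 and 1366 reads with shRNA #1. These ACTA2 values are reads not scaled to the depth of the library. The part of ACTA2-expressing cells or of the library in the values of KRT5 and KRT13 was not tested. KRT14, the usual type I partner of KRT5, had at most 18 reads in any library and was not tested.

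KRT15, a type I keratin of basal cells, had 167, 144 and 116 with NS shRNA against 81.6, 88.4 and 78.8 with shRNA #1. KRT15 had 69.0, 97.2 and 78.3 with shRNA #2, where the NS libraries had 181, 157 and 125. It fell with both hairpins, with log2 fold changes of -0.76 (SE 0.15, adjusted p = 0.0015) and -0.91 (SE 0.18, adjusted p = 0.000993) by limma, and no knockdown library reached the NS libraries. KRT10, the type I chain of the upper epidermis, was the only keratin that passed as higher with both hairpins. It had 1372, 1161 and 1201 with NS shRNA against 1637, 1609.7 and 1708 with shRNA #1. KRT10 had 1592, 1792 and 1578 with shRNA #2, where the NS libraries had 1480.5, 1260.2 and 1295. Its log2 fold changes were 0.41 (SE 0.070, adjusted p = 0.000639) and 0.30 (SE 0.081, adjusted p = 0.00755) by limma, with no overlap between groups. Here, the log2 difference between the hairpins was -0.12 (adjusted p = 0.167) in edgeR's quasi-likelihood test, and by -0.19 (adjusted p = 0.0488) without replicate 2 of shRNA #2. KRT79, a type II keratin of the hair canal, had 5, 3 and 0 reads with NS shRNA, 21, 26 and 28 with shRNA #1 and 11, 10 and 17 with shRNA #2. Its mean normalized count was 2.73 with NS shRNA and 25.3 with shRNA #1, so it met the minimum for the test only through the shRNA #1 libraries, and its higher level there is given as a description. The fitted log2 fold change was 3.17, and ran from 2.02 to 4.42 over the other settings. With shRNA #2 it had too few reads for the test. By edgeR's quasi-likelihood test KRT79 was lower with shRNA #2 than with shRNA #1, at a log2 fold change of -1.21 (adjusted p = 0.0144). It met the minimum there largely through the shRNA #1 libraries, so this difference is also given as a description.

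KRT23, a type I keratin of glandular epithelia, had 95.2, 97.2 and 71.1 with NS shRNA against 73.5, 53.8 and 72.1 with shRNA #1, at a log2 fold change of -0.40 (SE 0.18, adjusted p = 0.0819) by limma, and this passed without replicate 3 of NS shRNA (-0.54, adjusted p = 0.0239). KRT23 had 99.2, 97.2 and 137 with shRNA #2, where the NS libraries had 103, 105 and 76.7, at a log2 fold change of 0.22 (SE 0.18, adjusted p = 0.307). The remaining keratins with enough reads were KRT17 and KRT6A, which epithelia induce on wounding, and KRT78, KRT6C and KRT72. None of them passed against NS shRNA: KRT17 had log2 fold changes of 0.40 and 0.62, KRT6A of -0.62 and 0.38 and KRT78 of -0.43 and 0.25, while KRT6C (0.42) and KRT72 (0.48) could be tested with shRNA #2 only. Their adjusted p-values from limma ran from 0.104 to 0.465. KRT6A and KRT6C share 25.9% and 42.1% of their 76-base windows with other genes, so their reads are uncertain. In edgeR's quasi-likelihood test shRNA #2 exceeded shRNA #1 for KRT23 by a log2 difference of 0.64 (adjusted p = 0.0147), for KRT6A by 0.99 (adjusted p = 0.0304) and for KRT78 by 0.62 (adjusted p = 0.0217). The difference for KRT23 did not pass without replicate 2 of shRNA #1 (adjusted p = 0.0735) or replicate 3 of shRNA #2 (adjusted p = 0.0755).

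The claudins did not move as a family. CLDN1, CLDN4 and CLDN15 were higher and CLDN2, CLDN3, CLDN11 and CLDN23 lower with both hairpins, each by the test against the shared NS libraries. The call for CLDN4 with shRNA #1 was lost under several alternatives, given below. Within a library, CLDN4 alone held on average 51.3% of the summed claudin level per length with NS shRNA, 51.5% with shRNA #1 and 61.2% with shRNA #2.

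**Figure D4:**
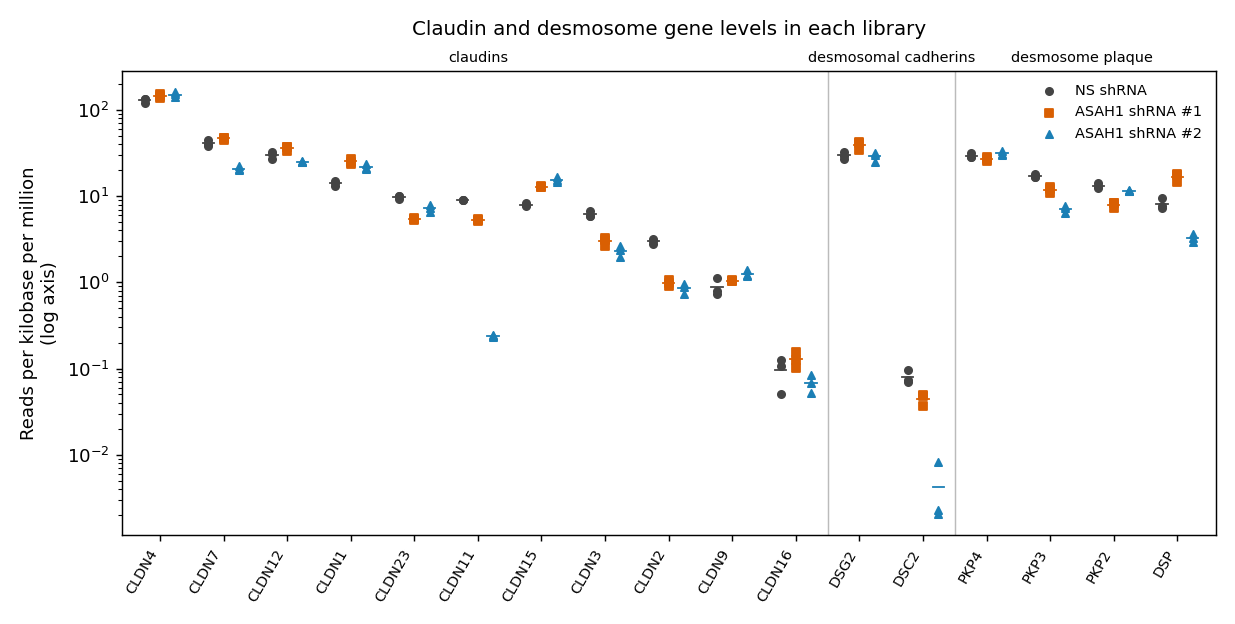
Level of each tested claudin and desmosome gene in each of the 9 libraries, in RPKM (reads per length of transcript, scaled to a common library total), on a log axis; circles are NS shRNA, squares ASAH1 shRNA #1, triangles ASAH1 shRNA #2, and short lines the group means. The plotted means of CLDN11 are 8.99, 5.27 and 0.239 and those of DSP 8.15, 16.6 and 3.27, in the order NS shRNA, shRNA #1 and shRNA #2.

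CLDN11, the claudin of myelin and of the Sertoli cell barrier (chr3:170418868-170454733), had 809, 803 and 791 with NS shRNA against 463, 475 and 454 with shRNA #1. CLDN11 had 25.9, 24.3 and 25.6 with shRNA #2, where the NS libraries had 873, 871 and 853. The replicates of each group lay close to each other, and the 3 groups were fully separated. The log2 fold changes were -0.79 (SE 0.061, adjusted p = 3.63e-06) with shRNA #1 and -5.05 (SE 0.11, adjusted p = 5.42e-10) with shRNA #2 by limma, and the log2 difference between the hairpins was -4.32 (adjusted p = 2.89e-11) in edgeR's quasi-likelihood test. CLDN2, a cation channel of leaky epithelia, had 270, 302 and 288 with NS shRNA against 100.3, 92.4 and 86.5 with shRNA #1. CLDN2 had 99.2, 108 and 83.0 with shRNA #2, where the NS libraries had 291, 328 and 311. It fell, with log2 fold changes of -1.61 (SE 0.11, adjusted p = 1.24e-06) and -1.68 (SE 0.13, adjusted p = 1.29e-06) by limma. The difference between the hairpins was -0.07 (adjusted p = 0.658 by edgeR's quasi-likelihood test), and 0.04 without replicate 3 of shRNA #2.

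CLDN3 and CLDN4, epithelial claudins that also bind an enterotoxin of Clostridium perfringens, lie 29.3 kb apart on chromosome 7 (chr7:73768997-73770270 and chr7:73799542-73832690). They moved in opposite directions with shRNA #2, while with shRNA #1 CLDN3 fell and the rise of CLDN4 was small and its call unstable. CLDN3 had 282, 245 and 241 with NS shRNA against 108, 127 and 133 with shRNA #1. CLDN3 had 128, 96.2 and 116 with shRNA #2, where the NS libraries had 304, 266 and 259.8. It fell, with log2 fold changes of -1.06 (SE 0.12, adjusted p = 3.42e-05) and -1.29 (SE 0.13, adjusted p = 1.16e-05) by limma. CLDN4 had 7393, 7289 and 6543 with NS shRNA against 7476, 7953 and 8206 with shRNA #1, and rose, with a log2 fold change of only 0.16 (SE 0.059, adjusted p = 0.0413). That call was lost without replicate 2 or 3 of either group (adjusted p of 0.0591 to 0.12) and under upper quartile rescaling (adjusted p = 0.0542). It was also lost with no filter on low values (adjusted p = 0.0533), no intensity trend (adjusted p = 0.0965) and a replicate block (adjusted p = 0.122), all by limma. CLDN4 had 9877, 9033 and 10478 with shRNA #2, where the NS libraries had 7977, 7912 and 7055. With this hairpin it rose, with a log2 fold change of 0.36 (SE 0.070, adjusted p = 0.00106) by limma. The ratio of CLDN3 to CLDN4, per length, was 0.0448 to 0.0507 with NS shRNA, 0.0193 to 0.0215 with shRNA #1 and 0.0142 to 0.0173 with shRNA #2, with the 3 groups apart. Between the hairpins the log2 difference of CLDN4 was 0.19 (adjusted p = 0.0269) in edgeR's quasi-likelihood test, which was lost without any of 4 of the 6 knockdown libraries (replicates 1 and 2 of shRNA #1, and 1 and 3 of shRNA #2, adjusted p of 0.0598 to 0.108). It was also lost with a replicate block (adjusted p = 0.0585).

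CLDN7, which is found along the basolateral membrane of epithelia, behaved differently with the hairpins. It had 2256, 2011 and 1875 with NS shRNA against 2198, 2354 and 2363 with shRNA #1. The log2 fold change was 0.17 (SE 0.072, adjusted p = 0.0549) by limma. This value passed without replicate 1 of NS shRNA (0.25, adjusted p = 0.00897) or of shRNA #1 (0.21, adjusted p = 0.0498). By DESeq2 on read counts it passed as well (0.18, adjusted p = 0.0475). CLDN7 had 1183, 1202 and 1328 with shRNA #2, where the NS libraries had 2435, 2183 and 2022. With this hairpin it fell, with a log2 fold change of -0.84 (SE 0.081, adjusted p = 6.91e-06) by limma. For CLDN7, the log2 difference between the hairpins was -1.02 (adjusted p = 5.06e-07) in edgeR's quasi-likelihood test. CLDN12, a claudin without the usual PDZ-binding tail, had 3130.3, 3552 and 3672 with NS shRNA against 4183, 4195 and 3786 with shRNA #1. It rose, with a log2 fold change of 0.23 (SE 0.070, adjusted p = 0.0142) by limma, which was lost without replicate 2 of shRNA #1 (adjusted p = 0.0625) and with a replicate block (adjusted p = 0.0505). CLDN12 had 3458, 3338 and 3405 with shRNA #2, where the NS libraries had 3378, 3855 and 3959, at a log2 fold change of -0.13 (SE 0.067, adjusted p = 0.109), and passed as lower without replicate 1 of NS shRNA (-0.20, adjusted p = 0.0145) and under upper quartile rescaling (-0.22, adjusted p = 0.012). Here, the log2 difference between the hairpins was -0.38 (adjusted p = 0.000315) in edgeR's quasi-likelihood test.

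CLDN1, the barrier claudin of the epidermis, had 1456, 1601 and 1660 with NS shRNA against 2954, 2768 and 2636 with shRNA #1. CLDN1 had 2830.4, 3056 and 2773 with shRNA #2, where the NS libraries had 1571, 1738 and 1789.8. It rose, with log2 fold changes of 0.83 (SE 0.066, adjusted p = 4.49e-06) and 0.76 (SE 0.069, adjusted p = 4.39e-06) by limma, and the log2 difference between the hairpins was -0.07 (adjusted p = 0.34) in edgeR's quasi-likelihood test. CLDN15, a cation channel of the gut, had 317, 307 and 325 with NS shRNA against 496, 514 and 496 with shRNA #1. CLDN15 had 777, 723 and 684 with shRNA #2, where the NS libraries had 342, 333 and 350.4. It rose with each, with log2 fold changes of 0.66 (SE 0.070, adjusted p = 2.70e-05) and 1.09 (SE 0.081, adjusted p = 1.16e-06), and more with shRNA #2, the log2 difference between the hairpins being 0.41 (adjusted p = 0.000197 by edgeR). CLDN23 had 707, 705 and 636 with NS shRNA against 370.4, 361 and 383 with shRNA #1. CLDN23 had 652, 534 and 607 with shRNA #2, where the NS libraries had 763, 765 and 686. It fell, with log2 fold changes of -0.88 (SE 0.073, adjusted p = 5.72e-06) and -0.31 (SE 0.091, adjusted p = 0.0125) by limma, the second of which was lost without replicate 2 of NS shRNA (adjusted p = 0.0516), and was higher under shRNA #2 than under shRNA #1 by a log2 difference of 0.56 (adjusted p = 0.000124). CLDN9, an inner-ear claudin at 48.8 ± 11.6 normalized counts (SD, n = 3) with NS shRNA and 76.1 ± 6.96 with shRNA #2, rose with that hairpin, with a log2 fold change of 0.65 (adjusted p = 0.0136) by limma, and had one of 0.24 (adjusted p = 0.306) with shRNA #1. CLDN16, a kidney claudin, had 5 to 13 reads with NS shRNA and a log2 fold change of 0.43 (adjusted p = 0.362) with shRNA #1 by limma.

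Among the desmosome genes, DSP went in opposite directions with the hairpins. This plaque protein, which ties the desmosome to keratin filaments (chr6:7541338-7586714), had 2296, 2426 and 2941 with NS shRNA against 5363, 5534 and 4507 with shRNA #1. DSP had 1218, 1336 and 1085 with shRNA #2, where the NS libraries had 2478, 2633 and 3171. Every shRNA #1 library lay above, and every shRNA #2 library below, each NS library. It rose with shRNA #1, with a log2 fold change of 1.01 (SE 0.10, adjusted p = 1.99e-05), and fell with shRNA #2, with one of -1.18 (SE 0.10, adjusted p = 3.07e-06), by limma, and the difference between the hairpins was -2.21 (SE 0.11, adjusted p = 2.54e-08) in edgeR's quasi-likelihood test. DSP was the only member that passed in opposite directions with the hairpins in the main fits. Under some alternatives PKP4 (lower with shRNA #1, higher with shRNA #2) and CLDN7 (higher with shRNA #1, lower with shRNA #2) did so too.

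DSG2, the desmoglein of simple epithelia and heart, had 4932, 5449 and 6022 with NS shRNA against 7765, 7437 and 6319 with shRNA #1. DSG2 had 6528, 6884 and 5487 with shRNA #2, where the NS libraries had 5321, 5914 and 6493. It rose with shRNA #1, with a log2 fold change of 0.39 (SE 0.090, adjusted p = 0.00366) by limma, and with shRNA #2 the groups overlapped at 0.09 (SE 0.093, adjusted p = 0.411). Between the hairpins the log2 difference was -0.31 (adjusted p = 0.0169) in edgeR's quasi-likelihood test, a call lost without replicate 1 or 2 of shRNA #1 or replicate 3 of shRNA #2 (adjusted p of 0.0582 to 0.0651). The ratio of DSP to DSG2, per length, was 0.262 to 0.287 with NS shRNA, 0.406 to 0.437 with shRNA #1 and 0.110 to 0.116 with shRNA #2.

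DSC2, the desmocollin of the same tissues, had few reads, with 28, 28 and 41 reads in the NS libraries. It had 14, 24 and 15 reads with shRNA #1 and 1, 1 and 5 with shRNA #2. As normalized counts these were 29.3, 27.5 and 37.9 against 18.7, 19.3 and 14.4, and 31.6, 29.8 and 40.8 against 1.08, 0.972 and 3.88. DSC2 fell, with log2 fold changes of -0.81 (SE 0.24, adjusted p = 0.0145) and -3.68 (SE 0.45, adjusted p = 4.08e-05) by limma. The first was lost without replicate 3 of NS shRNA (adjusted p = 0.0608). The second, for which the gene met the minimum only through the NS libraries, rested on a handful of reads and ran from -4.31 to -2.50 over the other settings. DSC2 and DSG2 lie 395.7 kb apart in a cluster of 7 desmosomal cadherin genes on chromosome 18.

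The plakophilins differed among themselves. PKP3, the plakophilin of most epithelia, had 1522, 1625 and 1511 with NS shRNA against 968, 1082 and 1158 with shRNA #1. PKP3 had 840, 685 and 800.5 with shRNA #2, where the NS libraries had 1642, 1764 and 1629.6. It fell, with log2 fold changes of -0.54 (SE 0.073, adjusted p = 0.00014) and -1.12 (SE 0.085, adjusted p = 1.28e-06) by limma, and further with shRNA #2, with a log2 difference between the hairpins of -0.59 (adjusted p = 9.61e-05) in edgeR's quasi-likelihood test. PKP2, the plakophilin of heart and simple epithelia, had 1703, 1802 and 1920.4 with NS shRNA against 1122, 1124 and 993 with shRNA #1, and fell, with a log2 fold change of -0.74 (SE 0.071, adjusted p = 1.30e-05) by limma. PKP2 had 1851, 1848 and 1900.4 with shRNA #2, where the NS libraries had 1837, 1956 and 2071, at a log2 fold change of -0.06 (SE 0.063, adjusted p = 0.384), which passed as lower under upper quartile rescaling (-0.15, adjusted p = 0.0466). PKP2 was higher under shRNA #2 than under shRNA #1 by a log2 difference of 0.67 (adjusted p = 3.47e-06). PKP4, which is also found at adherens junctions, had 4305, 4196 and 4703 with NS shRNA against 4167, 3982 and 3748 with shRNA #1, at a log2 fold change of -0.15 (SE 0.060, adjusted p = 0.0502). It passed without replicate 2 of NS shRNA (adjusted p = 0.0485) or replicate 1 of shRNA #1 (adjusted p = 0.0367). It also passed by limma with a pseudocount of 5 (adjusted p = 0.0496), a minimum of 50 (adjusted p = 0.0491) and upper quartile rescaling (adjusted p = 0.0384). PKP4 had 5471, 5869.7 and 5319.5 with shRNA #2, where the NS libraries had 4645, 4555 and 5071. With this hairpin it rose, with a log2 fold change of 0.22 (SE 0.062, adjusted p = 0.0087) by limma, which was 0.13 (adjusted p = 0.0765) under upper quartile rescaling. For PKP4, the log2 difference between the hairpins was 0.36 (adjusted p = 0.0003) in edgeR's quasi-likelihood test.

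Genes that work with the members gave mixed counts. Of 7 tested desmosome and plakin partners, 1 was higher and 5 lower with shRNA #1, beside 32.8% and 33.3% of all genes. With shRNA #2, 2 were higher and 3 lower, beside 33.5% and 33.4%. The medians were -0.25 and 0.04, against 0.0013 and 0.013 over all genes, the second median being of opposite sign to most of its calls. JUP (plakoglobin), which links desmosomal cadherins to DSP, fell, with log2 fold changes of -1.09 (SE 0.044, adjusted p = 6.93e-08) and -1.10 (SE 0.054, adjusted p = 7.69e-08) by limma, and the log2 difference between the hairpins was -0.02 (adjusted p = 0.705) in edgeR's quasi-likelihood test. EVPL (envoplakin) fell, with log2 fold changes of -0.86 and -0.57, PERP (a desmosomal membrane protein) with -0.12 and -0.75, and DST (dystonin, of hemidesmosomes in epithelia) rose, with log2 fold changes of 0.20 and 0.68. PPL (periplakin), the partner of envoplakin, fell with shRNA #1, with a log2 fold change of -0.78 (adjusted p = 5.20e-06), and rose with shRNA #2, with one of 0.67 (adjusted p = 4.85e-06), by limma. PLEC (plectin) fell with shRNA #1, with a log2 fold change of -0.25 (adjusted p = 0.00632), and had one of 0.11 (adjusted p = 0.272) with shRNA #2.

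Of 14 tested tight junction partners, 3 were higher and 4 lower with shRNA #1, beside 32.8% and 33.3% of all genes. With shRNA #2 the counts were 5 and 5, beside 33.5% and 33.4%. The medians were 0.07 and 0.06, the first of opposite sign to most of its calls. TJP3, a scaffold that binds claudin tails, fell, with log2 fold changes of -3.37 (SE 0.14, adjusted p = 9.43e-08) and -2.60 (SE 0.14, adjusted p = 1.31e-07) by limma. TJP1 (ZO-1), a related scaffold, rose with shRNA #1, with a log2 fold change of 0.41 (adjusted p = 0.00595), and had one of 0.03 (adjusted p = 0.833) with shRNA #2. CGNL1 (paracingulin) fell, with log2 fold changes of -1.93 and -1.66, PARD6A (a polarity protein) fell, with log2 fold changes of -0.72 and -1.003, and OCLN (occludin) rose, with log2 fold changes of 0.36 and 1.10. PARD6B fell with shRNA #1, with a log2 fold change of -1.46, and had one of 0.09 (adjusted p = 0.156) with shRNA #2. F11R, MPDZ and PARD3 did not pass with shRNA #1 (log2 fold changes of 0.12, 0.18 and 0.05). With shRNA #2, F11R (the junctional adhesion molecule JAM-A) fell, with a log2 fold change of -0.54, and MPDZ and PARD3 rose, with log2 fold changes of 0.34 and 0.57.

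Of 10 other intermediate filament genes tested, 1 was higher and 7 lower with shRNA #1, beside 32.8% and 33.3% of all genes, and 1 higher and 6 lower with shRNA #2, beside 33.5% and 33.4% (medians -0.58 and -0.33, against 0.0013 and 0.013 over all genes). VIM (vimentin), the filament of mesenchymal cells, had 67718 ± 1115 normalized counts (SD, n = 3) with NS shRNA and 56177 ± 1458 with shRNA #1, and fell, with log2 fold changes of -0.27 (adjusted p = 0.000309) and -0.67 (adjusted p = 6.32e-07) by limma. Thus the mesenchymal filament gene and KRT7, KRT8 and KRT19 were all lower with each hairpin. NES (nestin) fell, with log2 fold changes of -0.995 and -3.39, GFAP with -0.98 and -1.65, SYNM (synemin) with -1.04 and -0.42 and LMNB1 (lamin B1 of the nuclear lamina) with -0.98 and -0.25. LMNB2 (lamin B2) fell with shRNA #1, with a log2 fold change of -0.50, and had one of -0.10 with shRNA #2 without passing. LMNA (lamins A and C) had a log2 fold change of -0.15 with shRNA #1 without passing and rose with shRNA #2, with one of 0.51.

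Epithelial regulators and surface genes gave 5 higher and 7 lower of 15 with shRNA #1, beside 32.8% and 33.3% of all genes. With shRNA #2 they gave 5 and 6 of 13, beside 33.5% and 33.4%. The medians were 0.04 and 0.05, both of opposite sign to most calls. CDH1 (E-cadherin) fell, with log2 fold changes of -3.41 (SE 0.18, adjusted p = 3.93e-07) and -4.97 (SE 0.16, adjusted p = 7.11e-09) by limma. The protease inhibitor SPINT1 fell, with log2 fold changes of -1.26 and -1.66, and TP63, the basal-cell factor, with -1.19 and -1.71. GRHL1, a factor of epithelial differentiation, rose, with log2 fold changes of 1.26 and 1.48, and EPCAM, an epithelial adhesion molecule that binds CLDN7, with 0.21 and 0.57. The epithelial factor ELF3 fell, with log2 fold changes of -1.61 and -0.55. EHF and SPINT2 fell with shRNA #1, with log2 fold changes of -0.18 and -0.43, and had 0.05 and 0.14 with shRNA #2 without passing.

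The 53 members that were tested against NS shRNA with neither hairpin were 34 keratins, 13 claudins and 6 desmosome genes. Of these, 13 had no read in any library and 41, those 13 included, had at most 3 reads in every library, and the highest count was 19 reads, for KRT39. All desmosomal cadherins other than DSG2 and DSC2 belonged to this group, with at most 2 reads in a library, as did PKP1 with at most 3. Among the 41 were 14 type I keratins, 11 type II keratins and 10 claudins, whose expression was not detectable beyond a few reads at this depth. The genes lie in few places: 28 of 29 type I keratins are on chromosome 17 in 970.2 kb, while KRT18 is beside KRT8 at the end of the type II cluster of 26 genes on chromosome 12 (chr12:52168996-52949954).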

How the data were processed

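RNA of 9 libraries was sequenced as 76-base reads. Per the study's methods, the authors used Trimmomatic 0.36 for trimming and STAR 2.7.1a for alignment to hg38, counted reads per UCSC gene with HTSeq on the reverse strand, and ran DESeq2 1.28 for each hairpin against NS shRNA. Another methods passage names RSEM and edgeR, and the sources also differ on oligo-dT or ribosomal depletion. The deposited signal is the read count divided by a size factor. The authors' log2 fold changes with standard errors, test statistics (score) and p-values, also deposited, were not used. Whole reads were recovered from 100% of values above 0 (tolerance 0.02 reads), and 28 symbols turned into dates in 1 table were restored.

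Each hairpin was compared with NS shRNA by limma 3.58.1 with an intensity trend (R 4.3.3) on log2(value + 1), for genes with a mean of at least 10. The hairpins were compared by edgeR 4.0.16 (quasi-likelihood, TMM) on the recovered reads of 9 libraries with the same minimum. P-values were adjusted by Benjamini-Hochberg over all genes tested, at 0.05. Every tested member is named, with values per library for those with a mean of at least 100 or a called log2 fold change of at least 1. From each list of related genes, up to 4 called the same way in both comparisons are named, plus those with a mean of at least 1000, and some genes of these lists are not reported here. The gene families, the symbol rule for their members and the lists were chosen with earlier results of these data known. Levels per length used GENCODE v44 canonical transcripts. Alternatives were pseudocounts of 0.1 and 5, no filter or a minimum of 50, no trend, upper quartile rescaling, edgeR and DESeq2 1.42.0 on recovered reads, a replicate block, and leaving out each library.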

Additional observations from a re-analysis of the deposited data

Results flagged for a closer look

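DSP, the desmoplakin gene, moved in opposite directions with the hairpins. It had a log2 fold change of 1.01 with ASAH1 shRNA #1 and of -1.18 with ASAH1 shRNA #2 against NS shRNA by limma, and the difference between the hairpins was tested directly, with a log2 difference of -2.2072 (adjusted p = 2.54e-08 by edgeR's quasi-likelihood test over 9 libraries). All 3 libraries of shRNA #1 lay above, and all 3 of shRNA #2 below, the NS libraries. The cause was not tested.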

How the results depend on the processing

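The numbers of members higher and lower stayed within 1.5 times their reported values under each alternative: 7 to 10 higher and 15 to 19 lower with shRNA #1, and 5 to 8 higher and 14 to 17 lower with shRNA #2. Of 89 results for single members over the 3 comparisons, 65 kept their direction and their side of the threshold under each alternative and 24 did not, of which 13 lost and 9 gained a call at least once. The reversals were KRT83 with shRNA #2 against NS shRNA (0.27, and -0.02959 to 0.5128 with 1 library left out) and CLDN2 between the hairpins (-0.07, and -0.1603 to 0.03737), neither of which passed the test. The cause was not tested. Under upper quartile rescaling the median of all genes with shRNA #2 moved from 0.013 to -0.077.

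NS and hairpin libraries with the same replicate number did not deviate together. The correlation of their deviations from the group means was -0.188, -0.131 and -0.268 in the shRNA #1 comparison and -0.0982, -0.177 and -0.316 in the other. The numbers thus do not pair the NS libraries with those of a hairpin. Whether they pair the libraries of one hairpin with those of the other was not tested. With the replicate number as a block, 7 members were higher and 17 lower with shRNA #1, 6 and 15 with shRNA #2, and 13 and 11 between the hairpins. Members with under about 10 reads, and fold changes of KRT79, KRT83 and DSC2, are limited by depth.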
